A study of Mus musculus with 37 samples.

Results

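The genes described here encode the proteins of the mitochondrial ribosome. They were taken from a list of open reading frames (ORFs) that the authors called as translated in mouse dendritic cells, by the gene symbol at the start of each ORF's name: Mrpl or Mrps followed by a number. The symbols name the large (Mrpl) and small (Mrps) subunit. Of 10327 families of transcripts in the list, 74 were members, 46 of them Mrpl and 28 Mrps, and they held 111 of its 22367 ORFs. All 74 symbols were found in a RefSeq gene table. That table has 78 protein-coding genes with such symbols. Of the other 4, Mrpl57 and Mrpl58 were listed under their older names, Mrp63 and Ict1, and Mrpl27 and Mrps28 had no ORF listed under those symbols.

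The list was made from ribosome footprints, the RNA fragments that ribosomes shield from nuclease, of dendritic cells grown from the marrow of C57BL/6J mice aged 6 to 8 weeks. The 37 libraries came from naive cells, cells given lipopolysaccharide (LPS, 100 ng/mL) for 0.5 to 12 h at 8 time points, and mock-treated cells at the same time points. Cycloheximide, which stops elongation, was added at 100 µg/mL for 1 min to 16 LPS, 8 mock and 2 naive libraries, while 8 LPS libraries and 1 naive library had no inhibitor. Harringtonine (1 µg/mL, 5 min) and lactimidomycin (50 µg/mL, 30 min), which hold ribosomes at start codons, were used in 1 library each, on mixed LPS times. The labels name no other genotype. All libraries feed 1 list with no value per library, so no condition could be compared, the depth is unknown, and no value below has a replicate. Of 12 dendritic cell markers, 11 had a listed ORF (Flt3 did not), as did 4 of 4 neutrophil, 3 of 3 macrophage, 3 of 3 fibroblast, 2 of 3 mast cell, 1 of 3 B cell and 0 of 3 T cell markers. Presence in the list gives no level, and the part of other cells in the results below was not tested.

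The mitochondrial ribosome translates the few messenger RNAs of the mitochondrial genome, all of which encode subunits of the respiratory chain and ATP synthase. Its proteins are encoded in the nucleus, made on cytosolic ribosomes and imported, mostly with the help of an amino-terminal targeting sequence. Part of them descend from the proteins of bacterial ribosomes and the others were added in the mitochondrial lineage. An in-frame start codon inside such an ORF would give a protein without the first residues of the longer form. A short ORF upstream of a longer one can lower the number of ribosomes that reach the longer one.

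Start codons of members were read in RefSeq windows around annotated gene starts (build GRCm38.p6). The list gives the distance from transcript start to ORF start, and this distance was counted off in the window. The 5 sequences below show the start codons of members whose first coding bases held the run ATGGCGGC, which codes for methionine and alanine, and capitals mark the start codon. They lay at chr3:94443342-94443362 (plus strand, Mrpl9), chr6:71823747-71823767 (minus, Mrpl35), chr17:46111009-46111029 (plus, Mrps18a), chr13:99344794-99344814 (plus, Mrps27) and chr13:118387223-118387243 (minus, Mrps30). Each holds 9 bases of the leader, the stretch between transcript start and ORF start.
Mrpl9: tccgctgtcATGgcggcctct
Mrpl35: ggctgcaagATGgcggcttcc
Mrps18a: cgttccaagATGgcggccctc
Mrps27: cgctccaagATGgcggctccc
Mrps30: cgggcgaaaATGgcggcggcc

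Over the whole list, ATG stood exactly at the counted distance for 419 of 690 longest ORFs with leaders of 6 to 40 bases (60.7%), against 4 to 10 of them at shifts of 1 to 4 bases either way. Among members, 21 had a longest ORF that began close enough to a listed transcript start to be looked up, and 11 of these had ATG there. For the others, a different start codon and a different transcript start could not be told apart. The run ATGGCGGC began at the start codon in 6 of those 11 members (54.5%, interval 23.4 to 83.3%), the sixth being Mrpl50. In all families with an ATG found in this way it did so in 95 of 459 (20.7%), and in cytosolic ribosomal proteins in 0 of 7. Intervals here and below are exact Clopper-Pearson intervals at the 95% level, which cover counting error only, and genes are not replicates.

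The next 2 sequences are upstream ORFs, printed with the whole ORF in capitals from start to stop codon, and show how short the members' upstream ORFs can be. They lay at chr4:107066820-107066846 (minus strand, in the leader of Mrpl37) and chr19:4962320-4962349 (plus strand, in the leader of Mrpl11). The upstream ORF of Mrpl37 began with the same 8 bases as the main ORFs above.
Mrpl37 upstream ORF: cgggcaaagATGGCGGCGTCCAGGTAG
Mrpl11 upstream ORF: tgacccaaaATGGCCGCGCCCAGAGCGTAG

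For Mrps18c, 2 in-frame starts could be read, at chr5:100798761-100798781 and chr5:100798770-100798790 (plus strand). In capitals, the outer start is ATG and the inner one, 3 codons further on, is CTG, a codon at which initiation is known to occur at lower rates. The ORF from ATG scored 896 and that from CTG 636.
Mrps18c outer start: cggagaaccATGgccgctctg
Mrps18c inner start: atggccgctCTGgttgctctg

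In each family the longest ORF was called the main ORF. Main ORFs of the members were short and scored high. Their length had a median of 200.5 codons (interval 177 to 242), against 438 in all families and 151 in 79 cytosolic ribosomal protein families. Mrpl members had a median of 196.5 codons and Mrps members of 200.5. The 45 members with a bacterial counterpart had a median of 201 codons and the 27 without one of 206. Mrpl55 and Mrps36 were put in neither class. Mrps36 is now regarded as a subunit of the 2-oxoglutarate dehydrogenase complex, and Mrps18a and Mrps30 sit in the large subunit despite their symbols.

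The shortest main ORF belonged to Mrpl33, counterpart of bacterial L33, with 65 codons. It was followed by Mrps21 with 87, Mrpl34 with 92, and Mrpl36 and Mrps36 with 102 codons each. At the other end stood Mrps30 with 442 codons, Mrps5, counterpart of the S5 protein near the messenger RNA entry of bacterial ribosomes, with 432, Mrpl37 with 423 and Mrps27, a protein with pentatricopeptide repeats, with 415. All of these lie below the median of all families except Mrps30.

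One longer ORF stood apart. The 718-codon ORF listed under Mrps6 lay in a single exon at chr16:92077302-92079458 (mm9, plus strand) and scored 772. It sits between the exons of 2 other Mrps6 ORFs, of 134 codons (score 554) and 125 codons (score 983), which ended together at position 92112170. The transcripts of the short ORFs do not hold the start of the long one. Whether the long ORF belongs to another gene was not tested, so its length and score may not be those of the Mrps6 protein. Without Mrps6 the members' main ORFs had a median of 200 codons and a median score of 959. By genome position the short ORFs count as running over the main start, so shares of upstream ORFs are given with and without Mrps6.

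**Figure D1:**
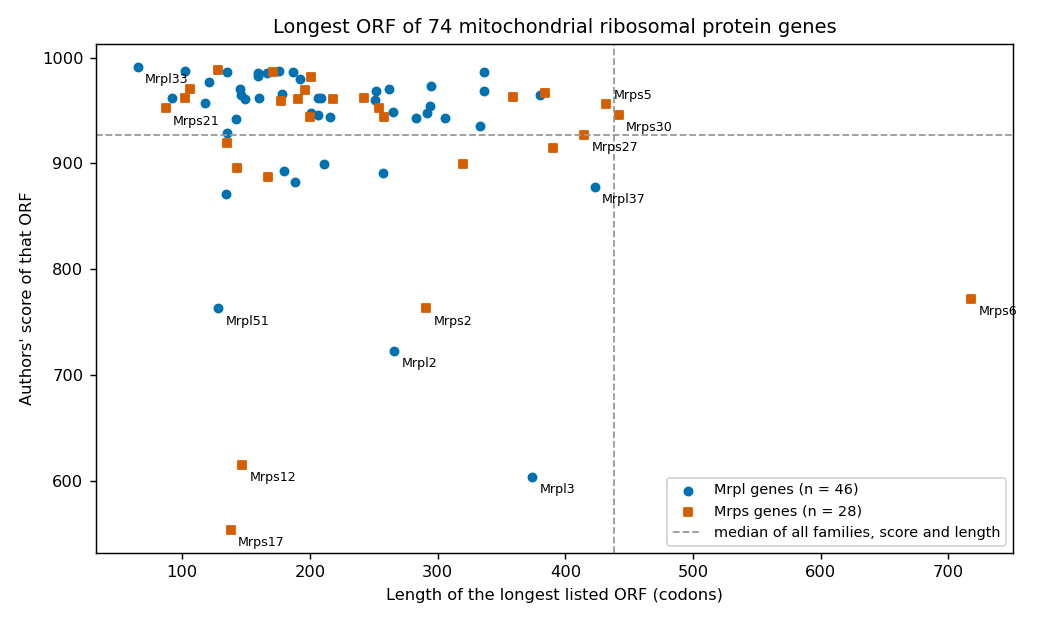
Length in codons (x axis) and the authors' score (y axis) of the longest ORF of each of 46 Mrpl (circles) and 28 Mrps (squares) genes. Dashed lines are the medians of all families, 438 codons and a score of 927. Most points lie left of the length line and above the score line; Mrps17, Mrpl3 and Mrps12 lie lowest, at 554, 604 and 615.

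The authors' score, a whole number from 500 to 991 in this list, ranks ORFs and is no expression level. Its median over the members' main ORFs was 958 (interval 946 to 962), against 927 in all families and 987 in cytosolic ribosomal proteins. A score of 900 or more was given to the main ORF of 58 of 74 members (78.4%, interval 67.3 to 87.1%), against 57.0% of all families and 94.9% of the cytosolic set. The members thus lay between the cytosolic set and the list as a whole. The highest scores were those of Mrpl33 (991, the top of the list's range), Mrps14 (988), Mrpl17 and Mrpl36 (987 each) and a group at 986 that includes Mrpl32.

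Only 3 main ORFs of members scored under 700, or 4.05%, against 15.1% of all families. They were those of Mrps17 (554), Mrpl3 (604) and Mrps12 (615). Mrpl3 is the counterpart of bacterial L3, which reaches toward the peptidyl transferase centre, and Mrps12 of S12, which takes part in decoding. Each of these 3 genes also had a shorter ORF with the same stop codon that scored 865 to 948, described below. When each gene was represented by its best-scoring ORF, 64 of 74 members reached 900 (86.5%), against 65.5% of all families, and none of the 74 stayed under 700, against 5.55% of all families. Mrpl18, Mrpl37 and Mrpl51 reached 900 only through an upstream ORF, of 11, 5 and 9 codons. Mrps6 did so through its ORF of 125 codons, and Mrpl35 and Mrps17 through an inner start. The next lowest main scores belonged to Mrpl2 (723), counterpart of a core protein of the peptidyl transferase region, and to Mrpl51 and Mrps2 (763 each).

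A single ORF was listed for 44 of 74 members (59.5%, interval 47.4 to 70.7%), against 43.5% of all families and 75.9% of the cytosolic set. A further 25 members had 2 ORFs, 3 had 3, and Mrpl33 and Mrps2 had 4. Besides 74 main ORFs the members held 15 ORFs with another in-frame start, 8 upstream ORFs, 3 over the main start, 7 splice variants that kept both ends of the main ORF, 2 other isoforms and 2 ORFs inside the main span in another frame. Genes with a single ORF made up 51.1% of members with a bacterial counterpart and 74.1% of the mitochondria-specific ones, with intervals of 35.8 to 66.3% and 53.7 to 88.9% that overlap.

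The leaders of the members were short, with a median of 81.0 bases (interval 59.0 to 114), against 186 in all families and 100 in the cytosolic set. Mrpl members had a median of 99.5 bases and Mrps members of 42.5, with intervals of 61.0 to 146 and 22.0 to 99.0. The shortest leader, of 6 bases, was that of Mrps18b. The longest, of 17973 bases for Mrpl33, 3119 for Mrpl53 and 2073 for Mrpl30, come from the transcript the ORF was listed on. For Mrpl33, another listed transcript begins close to the same start codon. The trailer, after the stop codon, had a median of 330 bases, against 1115 in all families, and main ORFs spanned 5 coding exons against 8.

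An upstream ORF, or an ORF that runs over the main start in another frame, was listed for 10 of 74 members (13.5%, interval 6.68 to 23.5%), against 20.2% of all families. Without Mrps6 the count was 9 of 73 (12.3%). Ribosomal proteins of the cytosol had 1 such gene in 79 (1.27%, interval 0.0320 to 6.85%). The shares were also taken in 2 bins of leader length. With leaders under 100 bases, 2 of 43 members had one (4.65%), against 4.20% of all families and 0 of 39 in the cytosolic set. With leaders of 100 bases or more, 8 of 31 members had one (25.8%, interval 11.9 to 44.6%), against 26.4% of all families and 1 of 40 in the cytosolic set (2.50%, interval 0.0633 to 13.2%). Without Mrps6 the longer bin held 7 of 30 members (23.3%, interval 9.93 to 42.3%). Without Mrpl33 as well, whose ORF over the main start lies on a transcript with a leader of 43 bases, it held 6 of 29 (20.7%, interval 7.99 to 39.7%). The part of leader length in the lower share of members was not tested.

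**Figure D2:**
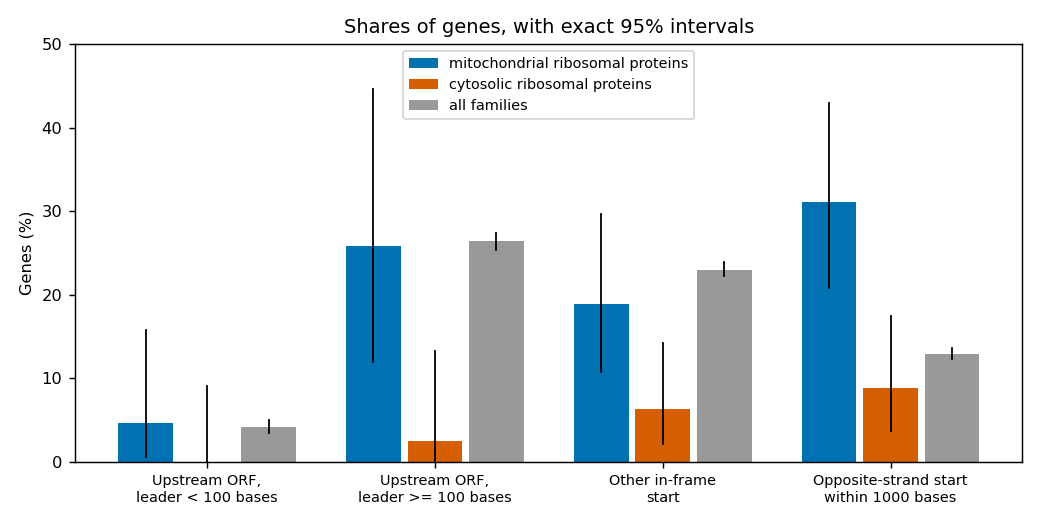
Share of genes in percent (y axis) with an upstream ORF or an ORF over the main start, by leader length, with another in-frame start, and with an opposite-strand transcript start within 1000 bases, for members (blue), cytosolic ribosomal proteins (orange) and all families (grey). Black lines are exact 95% intervals; members with leaders of 100 bases or more stand at 25.8% beside 26.4% of all families, and at 31.1% beside 12.9% for opposite-strand starts.

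The 8 members with an ORF that ended before the main start were Mrpl11, Mrpl18, Mrpl30, Mrpl37, Mrpl42, Mrpl51, Mrps15 and Mrps21, with 1 such ORF each. These ORFs had 3 to 30 codons and a median of 7.50, against 16.0 over all 2924 upstream ORFs of the list. Their scores ran from 510 to 968. In 3 of 8 the upstream ORF scored above the main ORF of its gene (37.5%, interval 8.52 to 75.5%), against 33.9% of all upstream ORFs.

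Those 3 were in Mrpl18, Mrpl37 and Mrpl51. In Mrpl51, a mitochondria-specific protein of the large subunit, an ORF of 9 codons scored 968, and the main ORF 104 bases downstream of its stop scored 763, the widest gap in this direction. In Mrpl18, counterpart of the bacterial protein that binds 5S ribosomal RNA, 11 codons scored 961 and the main ORF 893, with 48 bases between. In Mrpl37 the 5-codon ORF printed above scored 945 and the main ORF 878, only 24 bases further on. In Mrps15, which has a counterpart in the bacterial small subunit, 5 codons and the main ORF both scored 944, with 61 bases between.

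In the other 4 the main ORF scored higher. The 6-codon ORF of Mrpl11, printed above, scored 851 against 980 for the main ORF 43 bases downstream; bacterial L11 lies at the base of the stalk where translation factors bind. Mrps21 had the shortest, 3 codons that scored 803 against 952 and ended 10 bases before the main start. The 11 codons of Mrpl42 scored 510 against 942, with 51 bases between. The 30 codons of Mrpl30 scored 574 against 962, with 92 bases between. The ORFs of Mrpl42 and Mrpl30 were each split over 2 exons.

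Mrpl33, the shortest member, had an ORF of 37 codons (score 800) that began 7 bases before the main start and overlapped the main ORF in another frame. This ORF was spliced differently, with 2 coding exons against 4. It also ran past the main stop, ending at position 31924834 against 31924799. Mrpl33 also had 2 ORFs inside the span of the main ORF, of 17 codons (score 810) and 3 codons (score 833). All 3 scored below the 65-codon main ORF, at 991.

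**Figure D3:**
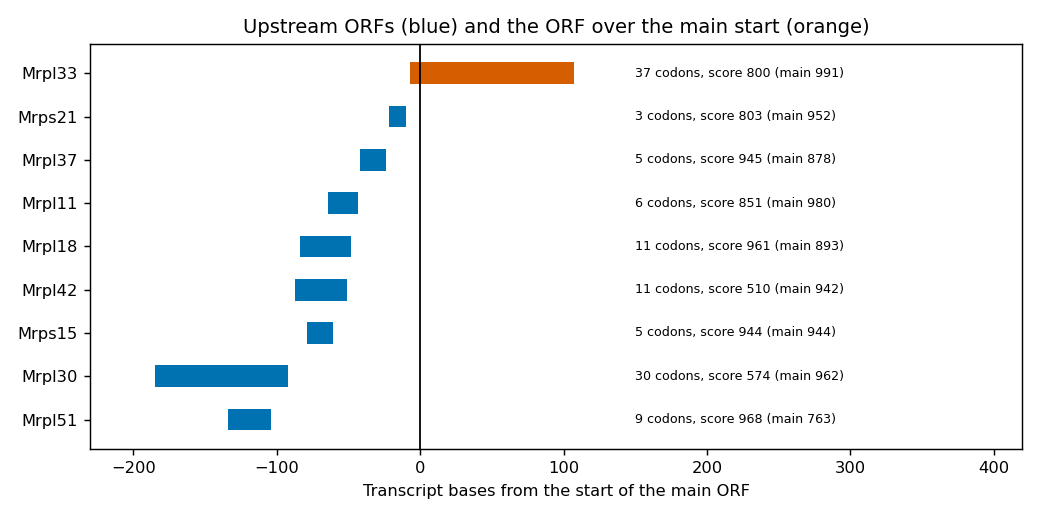
Position of 8 upstream ORFs (blue) and of the ORF over the main start of Mrpl33 (orange) in transcript bases from the start of the main ORF (x axis, line at 0), with their codons and the authors' scores. The upstream ORFs end 10 to 104 bases before the main start; Mrps6 is left out because its transcripts do not hold that start.

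Another in-frame start with the same stop codon was listed for 14 of 74 members (18.9%, interval 10.7 to 29.7%), against 23.0% of all families and 5 of 79 cytosolic ribosomal proteins (6.33%, interval 2.09 to 14.2%). They were 7 of 46 Mrpl members (15.2%) and 7 of 28 Mrps members (25.0%), with intervals of 6.34 to 28.9% and 10.7 to 44.9%. By origin they were 11 of 45 with a bacterial counterpart (24.4%) and 3 of 27 mitochondria-specific ones (11.1%), with intervals of 12.9 to 39.5% and 2.35 to 29.2%. The inner starts lay 1 to 96 codons after the outer one. Their median was 11.0 codons, and 12 of 15 lay within 30 codons (80.0%, interval 51.9 to 95.7%), against a median of 23.0 and a share of 57.6% over the 3158 starts inside the main ORF in all families. Main ORFs of the list are longer, so the room for a distant inner start differed too.

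The inner start scored above the outer one in 5 of 15 pairs (33.3%, interval 11.8 to 61.6%), against 42.4% of the 3158 inner starts of all families. In Mrps17, counterpart of an RNA-binding protein of the bacterial small subunit, the ORF that began 18 codons further in scored 948 and the longest one 554. In Mrpl3, 26 codons in, the values were 865 and 604. In Mrps12, 8 codons in, they were 874 and 615. In Mrpl35, 9 codons in, they were 956 and 882, and in Mrps2, 10 codons in, 852 and 763. In these 5 genes the inner start thus lay 8 to 26 codons into the longest ORF. In Mrps17 the inner ORF was listed on another transcript, with a leader of 967 bases against 140 for the longest ORF. Mrps6 was not counted here, as its 718-codon main ORF has another stop. Its ORFs of 134 and 125 codons, which end at the same position, scored 554 and 983. Which start gives the protein was not tested in any of these genes, as protein lengths were not compared.

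In the other 10 pairs the outer start scored higher. Mrpl4, a protein of the exit tunnel, had its inner start 1 codon further on, with a score of 665 against 954. Mrpl28 had 2 inner starts, 9 and 23 codons in, which scored 577 and 690 against 891. The inner start of Mrpl1, counterpart of the protein of the L1 stalk, lay 11 codons in and scored 602 against 968. In Mrps27 it also lay 11 codons in and scored 511 against 927. In Mrps24 it lay 27 codons in and scored 576 against 887.

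The 3 most distant inner starts all scored well below the outer start. They were those of Mrpl40 (36 codons in, 709 against 946), Mrpl54 (52 codons in, 599 against 929) and Mrps7 (96 codons in, 513 against 962). For Mrpl40 and Mrps7 the inner ORF was listed on another transcript. Its leader had 251 and 374 bases, more than the main ORF's leader (114 and 10 bases) and the codons between the starts add up to. The score of an inner ORF is the authors' value for an ORF that lies wholly inside another one in the same frame, and how their caller shares footprints between them is not given in the sources used here.

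**Figure D4:**
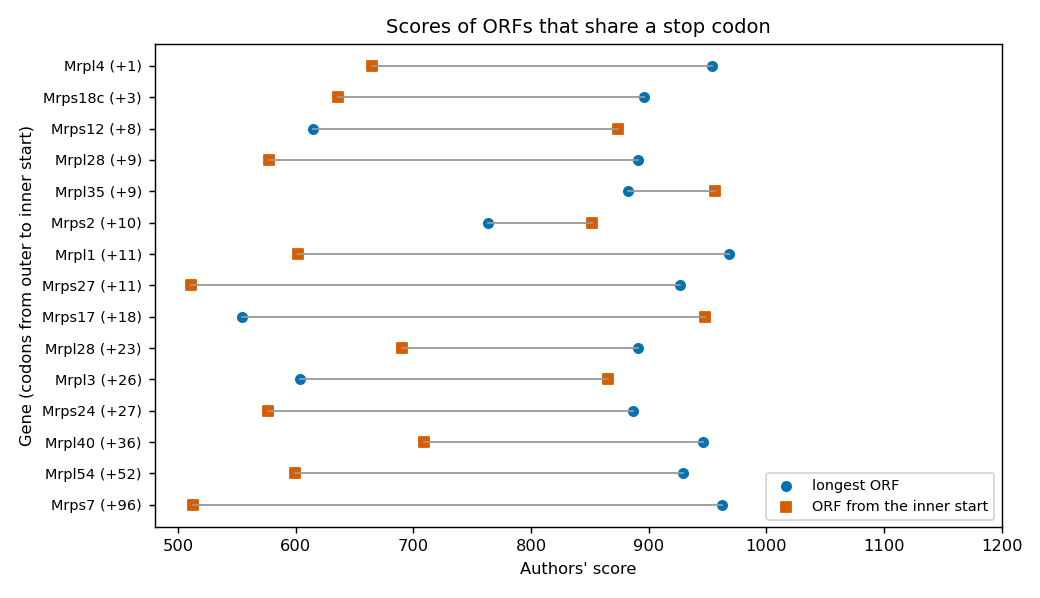
Authors' score (x axis) of the longest ORF (blue circles) and of the ORF from an inner in-frame start (orange squares) for 15 pairs in 14 genes, ordered by the number of codons between the starts, which stands in brackets. The inner start lies to the right in Mrps12, Mrpl35, Mrps2, Mrps17 and Mrpl3 and to the left in the other 10 pairs.

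Splice variants with the start and stop of the main ORF were listed for 6 of 74 members (8.11%, interval 3.03 to 16.8%), against 17.9% of all families and 3.80% of the cytosolic set. They were Mrpl9 (237 codons beside 265), Mrpl55 (127 beside 134), Mrps2 (272 and 252 beside 291), Mrps5 (410 beside 432), Mrps10 (200 beside 201) and Mrps31 (336 beside 384). Each carried exactly the score of its main ORF. Mrpl11 had an isoform of 158 codons (score 518 against 980) and Mrpl15 one of 204 codons (score 566 against 973), which differ from the main ORF at the carboxy-terminal end. Such isoforms were thus listed for 2.70% of members, against 6.78% of all families. The 3 paralogues of bacterial S18 differed in what was listed. Mrps18a (196 codons, score 969) and Mrps18b (254 codons, score 952) had 1 ORF each, and Mrps18c (143 codons, score 896) had the 2 starts printed above.

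The members lay on 17 chromosomes, with at most 9 on 1 of them, chromosome 11, and 44 on the plus strand. Many began close to a transcript of the other strand. A listed transcript that starts within 1000 bases on the opposite strand and heads the other way was present for 23 of 74 members (31.1%, interval 20.8 to 42.9%), against 12.9% of all families and 7 of 79 cytosolic ribosomal proteins (8.86%, interval 3.64 to 17.4%). The share was 34.8% of Mrpl and 25.0% of Mrps members. Within 500 bases it was 28.4% of members, against 11.3% of all families, and with only the transcript of the main ORF considered it was 31.1% against 12.5%. No test was made of the difference, since genes are not replicates. The median distance between the starts was 121 bases for members and 174 for all families with such a neighbour.

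The 23 members form 22 loci, because Mrpl46 and Mrps11, 1 protein of each subunit, face each other with 41 bases between their starts. At 19 loci the distance was under 250 bases. The partners were of many kinds, and no share of any kind among them was computed. Ndufs6, 6 bases from Mrpl36, and Ndufb5, 215 bases from Mrpl47, are subunits of respiratory complex I. Peo1, now called Twnk, is the mitochondrial DNA helicase and lay 115 bases from Mrpl43. Sars2, the mitochondrial seryl-tRNA synthetase, lay 186 bases from Mrps12, and Ptcd2, a mitochondrial RNA-binding protein, 107 bases from Mrps27.

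Other partners were Tcp1, a subunit of the cytosolic chaperonin (119 bases from Mrpl18), Psma2, a proteasome subunit (121 bases from Mrpl32), Hira, a histone chaperone (112 bases from Mrpl40), Ncapd2, a condensin subunit (226 bases from Mrpl51), and Fau, which encodes a protein of the cytosolic small subunit (215 bases from Mrpl49). The nearest after Ndufs6 was Eme2, 32 bases from Mrps34, followed among genes outside the family by Guk1, guanylate kinase, 52 bases from Mrpl55. The most distant were Ppp1r10 (458 bases from Mrps18b), Tmem63b (765 from Mrpl14) and Pnpla7 (934 from Mrpl41). At Mrpl21 and Ighmbp2 the listed transcripts overlapped by 90 bases.

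**Figure D5:**
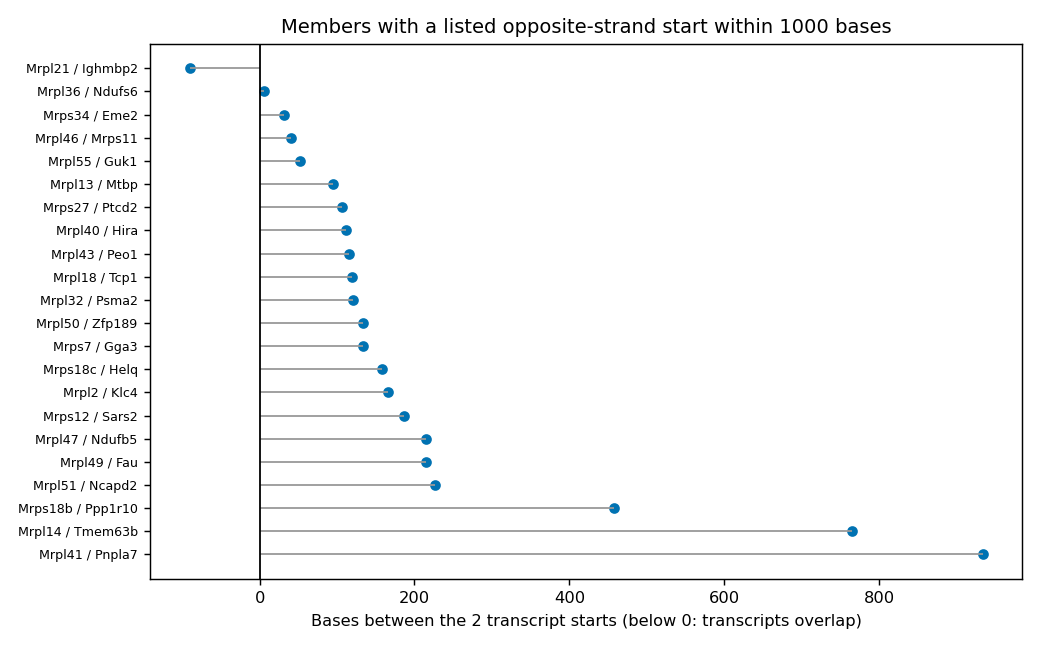
Bases between the transcript starts (x axis) of a member and of the nearest listed gene that begins within 1000 bases on the opposite strand, 22 loci in order of distance. A value below 0 means that the transcripts overlap, as at Mrpl21 and Ighmbp2; 3 loci lie beyond 250 bases, at 458, 765 and 934.

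At 5 loci the RefSeq windows of both genes gave the same distance between starts as the list, so the whole spacer could be read. The 3 below show how little sequence separates the genes. They lay at chr7:78783090-78783130 (GRCm38.p6, between Mrpl46 and Mrps11), chr19:45006443-45006557 (between Mrpl43 and Twnk) and chr13:99344679-99344785 (between Ptcd2 and Mrps27), all on the plus strand. Capitals mark CCGGAAG, the core bound by ETS family transcription factors, or its reverse complement CTTCCGG. It occurred at 2 places in the spacer of Mrpl43, once in that of Mrps27 and nowhere in that of Mrpl46. A match describes these letters and is no evidence of binding.
Mrpl46 to Mrps11: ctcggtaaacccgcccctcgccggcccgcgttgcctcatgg
Mrpl43 to Twnk: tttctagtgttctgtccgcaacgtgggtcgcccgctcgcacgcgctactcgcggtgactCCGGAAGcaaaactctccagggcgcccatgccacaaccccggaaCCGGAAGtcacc
Ptcd2 to Mrps27: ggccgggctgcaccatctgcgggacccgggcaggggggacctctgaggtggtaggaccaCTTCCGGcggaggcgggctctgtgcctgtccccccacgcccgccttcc

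Windows from 250 bases before to 50 after the gene start were at hand for 66 of 74 members, 72 windows in all, and were searched on both strands. CCGGAAG stood in 23 of 72 (31.9%, interval 21.4 to 44.0%), against 18.9% of windows of listed genes, 34.2% of those of cytosolic ribosomal proteins and 11.6% of those of all protein-coding genes. Among windows of members with an opposite-strand start nearby it stood in 34.8%, and in the others in 30.6%. AAGATGGCG, the core of the motif bound by YY1, which contains a start codon when read on the sense strand, stood in 8 windows (11.1%, interval 4.92 to 20.7%), against 3.29% of listed genes, 7.89% of the cytosolic set and 1.83% of all. In 4 of these members, Mrpl35, Mrpl37, Mrps18a and Mrps27, its ATG was a start codon printed above.

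GCATGCGC, the core of the motif bound by NRF1, a factor known for genes of mitochondrial function, also stood in 8 windows (11.1%, interval 4.92 to 20.7%), against 5.42% of listed genes, 3.95% of the cytosolic set and 3.52% of all. CCAAT was present in 41.7%, against 37.5% of listed genes and 38.2% of all, and TATAAA in 6.94%, against 7.23% and 12.6%. No motif searched contains another. Members' windows at paired loci can share bases, and the windows were chosen by RefSeq's gene starts, not by the footprints.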

How the data were processed

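The deposited list gives 1 line per ORF with exon blocks, the ORF's span and a score, which the authors assigned and whose scale is unknown. The mm9 build, TopHat and Bowtie2 are given, with no version or role, per the submitters' processing notes. How ORFs were called, on which transcript models, and how reads that match several places were handled is not given in the sources used here; Mrpl23, Mrpl48 and Mrps36 have named pseudogenes, so their ORFs are uncertain. No ORF scored under 500. Coordinates are mm9 unless GRCm38.p6 is named.

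Families were split by chromosome and strand, the longest ORF of each (on a tie, the higher score, then the name) was taken as the main one, and the others were classed by position and frame against it, in Python 3.11.15 with scipy 1.17.1. The classes were tested on simulated data, where the rules returned the true class of 3500 of 3500 ORFs (500 families). Splice variants and other isoforms were not simulated. All ORFs of a simulated family lay on the same exons, so ORFs on differing transcripts, as in Mrps6, were not covered. Length in the name equalled the coding bases in all 22367 ORFs. Members, gene lists and settings were chosen with earlier results of these data known. Named were members with an extra start or upstream ORF, with 4 ORFs, the 5 longest, shortest, highest and lowest, the Mrps18 paralogues, and, after their values were seen, those at opposite-strand pairs and with read start codons. Sequences are RefSeq's (GRCm38.p6). Alternatives were stricter scores, a minimum of 30 codons, the highest-scoring ORF as main or per stop, and Mrps6 left out. Protein lengths were not compared, as no protein table was used here.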

Additional observations from a re-analysis of the deposited data

How the results depend on the processing

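Upstream ORFs and inner starts depended on the score and length asked for, which remove ORFs by construction, and upstream ORFs also on which ORF was taken as main. The share of members with an upstream ORF was 13.5%, 1.56% (1 of 64) at scores of 900 or more and 4.05% (3 of 74) at 30 codons or more, against 5.77% and 8.79% of all families. The share with another in-frame start was 18.9%, 4.05% (3 of 74) at scores of 700 or more and 0% (0 of 64) at 900 or more, against 6.52% and 0.429%. The main ORF was picked again among the ORFs left at each setting. At 900 or more, upstream ORFs thus became the main ORFs of Mrpl18, Mrpl37 and Mrpl51 and were not counted. Inner ORFs likewise became the main ORFs of Mrps17 and Mrpl35. With the highest-scoring ORF as main, the upstream share was 8.11% (6 of 74), against 16.5% of all families; this lay within the interval of the main value. Besides the 4 values above, 28 were recomputed, this one included, and lay within the interval of their main value or within 1.5 times it. Leaving out Mrps6 (and Mrpl33 among long leaders), the distance of 500 bases and the restriction to the main ORF's transcript were chosen after seeing the data. One ORF per stop was not run for inner starts, since it leaves none. An ORF is listed only where its transcript was modelled and had footprints enough, so absence from the list may reflect depth, which is unknown. No paired analysis was possible because the result comes from no test.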

Other observations

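Proteins of the mitochondrial ribosome with other symbols were listed too, 7 of 9 names (a gene and its older name counted apart), with a median main score of 968. An upstream ORF or one over the start was listed for 2 of the 7 and another in-frame start for 3, against 20.2% and 23.0% of all families, with intervals of 3.67 to 71.0% and 9.90 to 81.6%. Dap3, a GTP-binding protein of the small subunit, had a main ORF of 396 codons (score 903), 4 inner starts, of which those of 391 and 361 codons scored 902 each, and a 61-codon ORF over its start (score 553). Aurkaip1 had 3 upstream ORFs, of 15, 14 and 7 codons (scores 882, 598 and 542), before a main ORF of 200 codons with 986. Ptcd3, a pentatricopeptide repeat protein, had inner starts of 666 and 649 codons that scored 805 each, above the 749 of its 685-codon main ORF. Mrp63 had an inner start of 76 codons (score 678 against 969).

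Of 39 names of mitochondrial translation, ribosome assembly and transcription genes (a gene and its older name counted apart), 34 were listed. Mterf3, Mterf4 and Mtg2 were listed only under their older names, Mterfd1, Mterfd2 and Gtpbp5. Nsun4 and Ddx28 had no ORF listed under those symbols. The names include Tfam, Tfb2m and Polrmt, which act in transcription of mitochondrial DNA. An upstream ORF or one over the start was listed for 3 of the 34 (8.82%, interval 1.86 to 23.7%), against 20.2% of all families, and another in-frame start for 8 (23.5%, interval 10.7 to 41.2%), close to the 23.0% of all families. The upstream ORFs of Mtrf1, a release factor family member, and Rmnd1 had 5 and 4 codons (scores 848 and 515), and the ORF over the start of Fastkd2 had 22 (score 534). In Mtif2, the mitochondrial initiation factor, an inner start of 727 codons scored 886 against 540 for the longest ORF, of 740. Noa1 showed the same order, with 649 for 692 codons against 529 for 693. In Mterfd1, Dhx30, Fastkd2, Rbfa, Taco1 and Tfb2m the inner start scored below the main ORF.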
